A study of Mus musculus with 34 samples.

Results

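STAT5 binding after GM-CSF was profiled by ChIP-seq in dendritic cells with CTCF (CTCF-WT) and without it (CTCF-KO), and each STAT5 peak was placed in a class by what the other genotype's list held at the same place. A WT peak that shared at least 1 bp with a KO peak was called kept, a WT peak with no such partner was called lost, and a KO peak with no WT partner was called KO only. There were 8185 STAT5 peaks in WT and 6850 in KO. In each list 5 peaks were left out, because they lay at places with a peak in every one of the 26 lists for targets other than p65. The remaining 15025 peaks, of 1393623 in all 30 lists of the series, gave 5298 kept, 2882 lost and 1559 KO only sites. On the KO side, 5286 peaks were kept, and 32 kept WT peaks shared their KO peak with another WT peak.

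The cells were bone marrow-derived dendritic cells (BMDCs) of C57BL/6 mice, 8 weeks old per the labels, grown for 6 days with GM-CSF. WT cells carried CreER alone, and KO cells carried CreER together with CTCF fl/fl. CreER is a tamoxifen-inducible Cre recombinase placed at the ubiquitously expressed Rosa26 locus, and 4-OH tamoxifen was given to both genotypes on the first day of culture, so deletion was not limited to dendritic cells. For STAT5 alone, cells received GM-CSF again for 15 min before fixation. Marks compared with STAT5 came from cells of the same genotypes that were not described as restimulated. For p65, CTCF and SMC1, lists of cells given LPS at 100 ng/mL for 3 h were used in places, named as such. The labels name an antibody against total STAT5 for these libraries, while the study's methods give a catalogue number listed for phosphorylated STAT5, so whether the peaks are of all STAT5 or of its phosphorylated form rests on the labels. Every antibody and condition had a single list and none per replicate, so no test between WT and KO was possible. Parentheses hold 95% Wilson intervals for shares and Newcombe intervals for differences, which cover counting error only and treat neighbouring peaks as independent.

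GM-CSF binds a receptor of an alpha chain and a shared beta chain. The kinase JAK2, attached to the receptor, phosphorylates STAT5A and STAT5B, which pair and enter the nucleus. STAT5 pairs bind the palindrome TTCNNNGAA, where N is any base, and switch on genes of survival, growth and feedback, among them Cish and the Socs genes, whose proteins restrain the same receptor. CTCF is a DNA-binding protein that, with the cohesin ring of which SMC1 is a subunit, anchors chromatin loops. H3K4me1 marks enhancers in general, and H3K27ac marks active enhancers and promoters.

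The labels were checked by the CTCF peaks and by marks at the promoters of marker genes. The CTCF list held 60537 peaks in WT and 20151 in KO, and a KO CTCF peak overlapped 23.7% of the WT ones. All 9 marker genes of dendritic and myeloid cells (Itgax, Itgam, Cd74, H2-Ab1, H2-Aa, Spi1, Csf1r, Csf2rb and Cd86) had H3K4me3 and H3K27ac at the promoter in both genotypes. For H3K4me3 in both genotypes, the T cell list was at 0 of 5 (Cd3e, Cd3d, Cd3g, Cd4 and Cd8a). The neutrophil list was at 1 of 5, the erythroid list at 2 of 3 and the hepatocyte list at 0 of 3. For H3K27ac the T cell list was at 1 in WT and 0 in KO, and the neutrophil list at 0 in WT and 2 in KO. The erythroid and hepatocyte lists were at 0 for H3K27ac in both genotypes. One region stood apart: in the immunoglobulin heavy chain (Igh) locus on chromosome 12 the KO list of STAT5 held 188 peaks against 5 in WT, and KO lists of other antibodies were also denser there. Several results on KO only sites are therefore also given without it.

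The summit sequences below show what the classes hold. They comprise sites of the feedback and survival genes Cish, Socs2, Pim1 and Bcl6, a kept site of very high enrichment near Fgd2, lost sites of Cish and of Irak2, a TLR signalling kinase gene that the study itself examined, the lost site of highest fold (near Serpina11), a strong lost site with a motif (Ankrd28), and the KO only sites of highest fold inside the Igh locus (assigned to Zfp386) and outside it (1810013L24Rik), with that near Smim4. Each is the summit base and 50 bp to either side in the mouse genome (GRCm38, mm10), on the forward strand, 5′ to 3′, and capitals mark every TTCNNNGAA.
Cish, kept, chr9:107312957-107313057: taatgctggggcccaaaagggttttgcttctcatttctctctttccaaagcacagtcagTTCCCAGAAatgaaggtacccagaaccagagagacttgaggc
Socs2, kept, chr10:95416884-95416984: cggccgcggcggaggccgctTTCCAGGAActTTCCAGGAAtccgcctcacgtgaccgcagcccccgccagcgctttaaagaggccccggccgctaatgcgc
Pim1, kept, chr17:29443952-29444052: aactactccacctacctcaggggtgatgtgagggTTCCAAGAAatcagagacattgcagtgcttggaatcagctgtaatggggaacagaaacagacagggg
Bcl6, kept, chr16:23981299-23981399: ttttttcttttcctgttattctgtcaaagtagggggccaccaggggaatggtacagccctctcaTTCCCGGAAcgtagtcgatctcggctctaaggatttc
Fgd2, kept, chr17:29395527-29395627: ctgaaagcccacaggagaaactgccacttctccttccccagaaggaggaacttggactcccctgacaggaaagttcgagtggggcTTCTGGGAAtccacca
Cish, lost, chr9:107298221-107298321: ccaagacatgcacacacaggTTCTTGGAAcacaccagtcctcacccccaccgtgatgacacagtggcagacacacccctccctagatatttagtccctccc
Ankrd28, lost, chr14:31785789-31785889: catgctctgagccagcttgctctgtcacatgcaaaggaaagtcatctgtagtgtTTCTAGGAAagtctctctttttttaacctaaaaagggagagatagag
Irak2, lost, chr6:113644909-113645009: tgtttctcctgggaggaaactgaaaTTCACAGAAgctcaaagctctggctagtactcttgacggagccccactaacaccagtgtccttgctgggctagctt
Serpina11, lost, chr12:103992439-103992539: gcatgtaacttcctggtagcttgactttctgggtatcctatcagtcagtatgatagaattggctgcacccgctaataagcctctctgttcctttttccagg
1810013L24Rik, KO only, chr16:9081926-9082026: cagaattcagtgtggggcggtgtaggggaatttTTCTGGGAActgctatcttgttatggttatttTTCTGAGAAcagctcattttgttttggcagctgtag
Smim4, KO only, chr14:31079512-31079612: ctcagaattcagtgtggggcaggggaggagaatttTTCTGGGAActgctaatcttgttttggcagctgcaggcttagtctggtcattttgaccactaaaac
Zfp386, KO only, chr12:115181341-115181441: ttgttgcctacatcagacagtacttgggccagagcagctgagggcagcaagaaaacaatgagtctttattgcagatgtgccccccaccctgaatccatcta

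Among the kept ones, the Cish, Pim1, Bcl6 and Fgd2 sites held 1 motif each, and the Socs2 site held 2 copies of TTCCAGGAA separated by a pair of bases. The lost site in Cish had 1 motif, as had those of Irak2 and Ankrd28, while the lost site near Serpina11 had none. The KO only site near 1810013L24Rik held 2 motifs, the one near Smim4 held 1, and the one in the Igh locus held none.

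Loss of STAT5 peaks followed the strength of the WT peak. Of the WT peaks, 35.2% (34.2 to 36.3%) were lost, and of the KO peaks, 22.8% (21.8 to 23.8%) were KO only. With WT peaks split into 5 equal groups of 1636 by fold, the pileup of fragments over local background, the share lost was 73.1%, 55.9%, 35.1%, 11.2% and 0.795% from the weakest group to the strongest. In the strongest group 13 peaks were lost. KO peaks behaved alike in the other direction, with 60.8%, 31.9%, 16.0%, 4.31% and 0.877% KO only. From weakest to strongest these were 832, 437, 219, 59 and 12 peaks, of which 787, 371, 180, 32 and 5 lay outside the Igh locus. The median fold was 9.88 at kept, 6.01 at lost and 4.81 at KO only sites. Lost sites thus lay mostly among the weakest WT calls, and lost means only that no KO peak was called there.

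**Figure D1:**
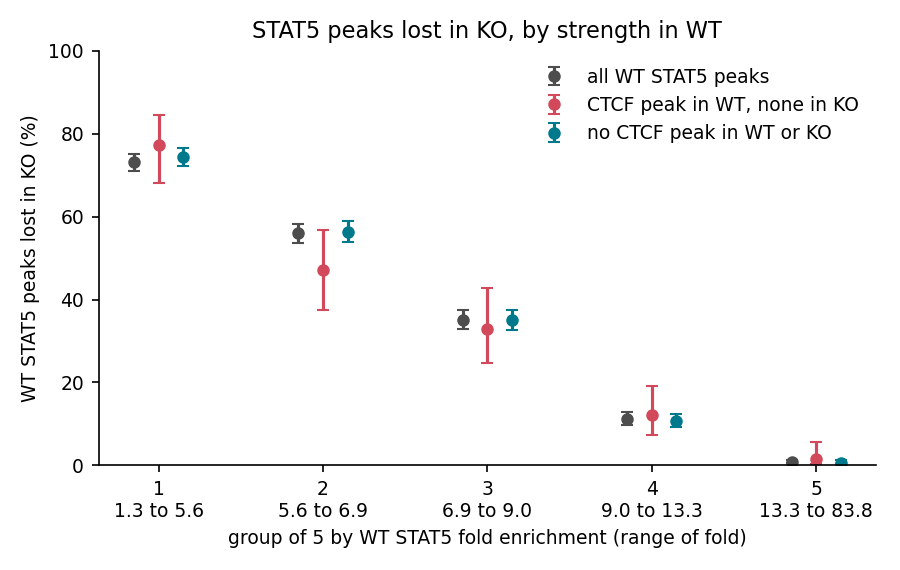
Share of WT STAT5 peaks lost in KO (y axis, percent) in 5 equal groups of WT fold (x axis, weakest to strongest), for all sites and by CTCF state of the site, with 95% Wilson intervals as bars. From 73.1% in the weakest group the share of all sites lost goes down to 0.795% in the strongest.

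The number of fragments at each summit was recovered from the fold and the p-value, which allowed levels to be compared at kept sites. Kept summits had a median of 23 fragments in WT, and lost and KO only summits 13 each. The lowest called summit had 8 fragments in WT and 9 in KO. Median peak width was 438 bp at kept, 255 bp at lost and 261 bp at KO only sites. Background coverage was 1.33 fragments per base in the WT library and 1.70 in the KO library, so that the KO library was the deeper one.

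At kept sites STAT5 was lower in KO relative to the background of its library. The KO to WT ratio of fragments per unit of coverage had a median of 0.747 (interquartile range 0.623 to 0.909), and 4417 of 5298 kept sites (83.4%) lay below 1. Without the scaling to coverage the median ratio was 0.958, with fewer fragments in KO at 52.4% of the sites and more at 41.2%, and as a ratio of folds it was 0.825. The direction of the median therefore held on these 3 scales, while its size depended on the scale. Across sites the 2 libraries ranked kept sites alike (Spearman's rho 0.792 over 5298 sites of 1 pair of lists, given as a description). Summits of kept pairs lay a median of 45 bp apart, and 53.9% lay within 50 bp.

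Per unit of coverage, the lower level was spread over kept sites of every strength. In 5 groups by the mean of WT and KO level, the median ratio lay between 0.727 and 0.779, and the share of sites lower in KO between 77.6% and 91.5%. Among the 100 kept sites of highest mean level, which include places of high background given below, the median was 0.776, with 93 lower in KO. Without the scaling this did not hold throughout: the weakest group had a median ratio of 1, with more fragments in KO at 47.7% of sites and fewer at 42.3%, the other 4 groups had medians below 1, the lowest 0.933, and the 100 sites had 0.996. Sites under a WT SMC1 peak had a median ratio per coverage of 0.727 and sites without one 0.779, and the same 2 values were found with and without WT H3K27ac. Without the scaling these medians were 0.933 and 1 for either mark. Sites without SMC1 then had more fragments in KO at 47.5% and fewer at 45.5%, and sites without H3K27ac at 48.6% and 44.9%. Sites without the mark were also weaker in WT, with a median of 20 fragments against 25 for SMC1 and 24 for H3K27ac. A difference in STAT5 occupancy and a difference in the efficiency of 1 immunoprecipitation cannot be told apart with 1 list per genotype. A background above 10 fragments lay at 32 kept, 11 lost and 3 KO only sites, with 45 to 4204 fragments at folds of 1.33 to 14.4. The kept site of highest fold had 194 fragments in WT, so the kept sites of most fragments are places of high background. A fold of 14.4 lies within the strongest of the 5 WT groups by fold (13.3 to 83.8).

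**Figure D2:**
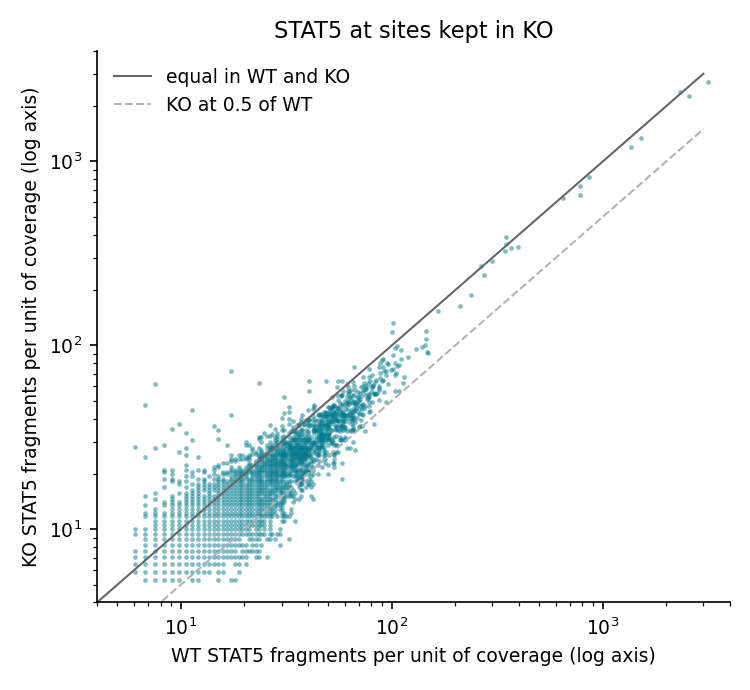
STAT5 level at the 5298 kept sites, as fragments at the summit divided by the coverage of the library, in WT (x axis) and KO (y axis), both on log scales. Each point is 1 distinct pair of levels, which several sites can share, and 83.4% of the sites lie below the line of equal level.

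The CTCF lists separated kept from lost sites very little. Overlap with and distance to a CTCF peak describe CTCF at or near a site only. Whether STAT5 binding depends on CTCF by other routes, such as the weaker JAK2 and STAT5 phosphorylation that the study reports in KO, was not tested. A WT CTCF peak overlapped 9.65% of kept and 9.23% of lost sites, a difference of -0.415 percentage points (-1.71 to 0.935). With the CTCF peak required to cover the STAT5 summit, the sign turned and lost sites had CTCF more often, by 1.40 points (0.268 to 2.59). A KO CTCF peak overlapped 3.19% of kept and 3.82% of lost sites. STAT5 was lost at 31.7% of the 539 sites with a CTCF peak in WT only, at 35.3% of the 7362 sites with CTCF in neither list and at 39.9% of the 238 sites with CTCF in both. Sites where the CTCF peak was gone in KO differed from sites without CTCF by -3.60 points (-7.55 to 0.585), an interval that contains 0 and leaves room for a loss up to 0.585 points more frequent.

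Within the 5 strength groups this difference ran from -9.35 to 2.91 points, and every interval contained 0. Level at kept sites was alike too, with a median KO to WT ratio of 0.745 at the 368 kept sites where CTCF was gone and 0.744 at the 4761 kept sites without CTCF. Distance to CTCF gave a similar picture. Loss was 35.5% under 1 kb from the nearest WT CTCF summit, 33.8% at 1 to 5 kb, 35.3% at 5 to 20 kb, 35.3% at 20 to 50 kb and 38.2% beyond 50 kb. Kept sites lay a median of 8.04 kb and lost sites 8.34 kb from a WT CTCF summit. A core of the CTCF motif, searched on both strands, lay at 0.566% of kept and 0.625% of lost summits, against 0.501% of windows along the genome.

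Cohesin and the enhancer marks lay at most STAT5 sites, and somewhat less often at lost ones. SMC1 in WT overlapped 60.1% of kept and 55.1% of lost sites (difference -5.04 points, -7.28 to -2.79). H3K27ac in WT overlapped 60.6% and 51.3% (-9.29, -11.5 to -7.04), and H3K4me1 in WT 92.9% and 85.8% (-7.11, -8.59 to -5.69). In the KO lists the shares were 53.2% and 45.3% for SMC1, 55.8% and 43.7% for H3K27ac, and 92.7% and 84.0% for H3K4me1. The promoter mark H3K4me3 in WT lay at 22.6% of kept and 17.5% of lost sites. The repressive mark H3K27me3 in WT lay at 2.27% and 2.5%.

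These differences became smaller or changed sign in the 4 weaker strength groups, where sites of like strength were compared. There, lost minus kept ran from -3.81 to 8.31 points for WT SMC1, from -6.74 to 1.07 for WT H3K27ac and from -5.08 to -0.246 for WT H3K4me1. The interval left out 0 in 2, 0 and 1 of the 4 groups. For WT CTCF it ran from -5.35 to 5.38, with 2 such intervals of opposite sign. In the strongest group, with only 13 lost sites, it was 4.53 points (-22.7 to 19.6) for WT SMC1, -25.9 (-49.0 to -1.13) for WT H3K27ac and 3.39 (-19.4 to 4.38) for WT H3K4me1, so that for H3K27ac it was larger there than over all sites.

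**Figure D3:**
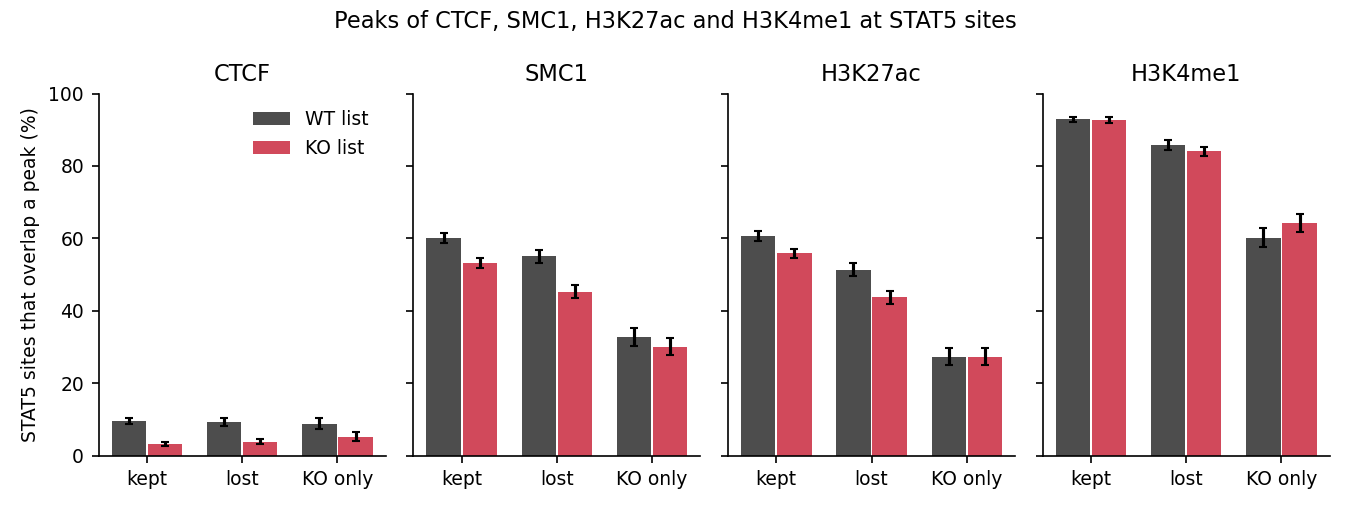
Share of kept, lost and KO only STAT5 sites (outside the Igh locus) that overlap a CTCF, SMC1, H3K27ac or H3K4me1 peak (y axis, percent), for the WT and KO lists of each mark, with 95% Wilson intervals as bars. Kept and lost sites are close for CTCF (9.65% and 9.23% in WT), and KO only sites are lower than both for SMC1, H3K27ac and H3K4me1.

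Marks at STAT5 sites were retained in KO more often than over all peaks of the mark, with the smallest gap for CTCF at kept sites. Of the WT SMC1 peaks at all places 34.5% overlapped a KO SMC1 peak, against an SMC1 peak in KO at 81.5% of kept and 76.8% of lost STAT5 sites that had one in WT. For H3K27ac the shares were 47.2%, 80.1% and 74.8%, and for H3K4me1 74.4%, 97.2% and 94.1%. For CTCF they were 23.7% (23.4 to 24.1%), 28.0% (24.3 to 32.0%) and 35.7% (30.2 to 41.6%). The first of each trio counts peaks of the mark and the others count STAT5 sites, and the strength of the mark's own peaks was not matched.

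Over all strengths, loss of STAT5 was more frequent where SMC1, H3K27ac or H3K4me1 was absent from the KO list than where it was retained. For CTCF the shares given above ran the other way (31.7% and 39.9%), and these sets had median WT folds of 8.16 and 6.44. In the weakest group 77.3% were lost with CTCF in WT only and 45.5% with CTCF in both lists. The stronger groups gave 47.0% and 62.0%, 33.0% and 42.1%, 12.1% and 32.4%, and 1.59% and 2.78%, with 36 to 126 sites per set. Where SMC1 was in WT only, STAT5 was lost at 38.4% of 960 sites, against 32.0% of 3814 sites with SMC1 in both lists (difference 6.48 points, 3.10 to 9.92). With H3K27ac the shares were 36.8% and 30.1% (6.66, 3.38 to 10.01), and with H3K4me1 51.4% of 284 sites and 32.7% of 7112 (18.7, 12.8 to 24.5). For H3K4me1 the difference was 15.7, 11.4 and 14.2 points in the 3 strongest groups, each with an interval above 0. For SMC1 the interval lay above 0 in the second and the strongest group only, and for H3K27ac in the strongest only, where 170 and 1006 sites were compared. In 3 of the 4 weaker groups the H3K27ac difference was negative, at -2.50, -1.65 and -0.772 points, with intervals that contained 0.

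The strongest group held 13 lost sites. With SMC1 in both lists, 0 of 973 strong STAT5 sites were lost (up to 0.393%), and with SMC1 in WT only, 10 of 212 were lost. Of the 13 strong sites that were lost, 10 had SMC1 in WT and 0 in KO, 13 had H3K4me1 in WT and 9 in KO, 6 had H3K27ac in WT and 2 in KO, and 3 had CTCF in WT and 1 in KO. Each antibody and condition has 1 list, only the STAT5 cells were restimulated, and which of the changes came first was not tested.

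The 10 lost sites of highest fold carried 34 to 77 fragments in WT, and each had H3K4me1 there. Serpina11 stood first with 77 fragments at chr12:103992225-103993172, 2.5 kb before its start, with neither SMC1 nor H3K27ac nor CTCF. Vgll3, a transcriptional cofactor gene, had 2 such sites 75.4 and 77.3 kb away with 52 and 44 fragments, both with SMC1, H3K27ac and H3K4me1 in WT and none of these in KO. Next came Ankrd28 with 45, Cndp2 with 42, Six2 with 39, Meis1 with 36, Rpl28 with 35, Sall3 with 34 and Ybx3 with 34. Over the 10, SMC1 went from 8 in WT to 0 in KO, H3K4me1 from 10 to 6, H3K27ac from 4 to 1 and CTCF from 3 to 1, and 4 held a motif.

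Kept sites of highest fold looked different. They were near Stk17b (194 fragments in WT and 156 in KO), Snx5 (193 and 184), Fgd2 (190 and 171), Adora2b (185 and 168), Rmi2 (173 and 163), Cish (159 and 148), Ino80c (151 and 115), Rnf144a (150 and 106), Nampt (146 and 143) and Flrt3 (146 and 161). Per unit of coverage all 10 were lower in KO, with ratios between 0.551 at Rnf144a and 0.859 at Flrt3. SMC1 lay at 10 of them in WT and at 9 in KO, H3K4me1 at 10 in both, CTCF at 1 in WT and 0 in KO, and 7 held a motif. Only the Cish site was at a promoter.

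Position in the genome did not separate lost from kept sites. Promoters, taken as 2.5 kb to either side of a gene start, held 17.4% of kept and 17.4% of lost sites (difference -0.0568 points, -1.76 to 1.68), introns 42.6% and 43.0%, and the space outside genes 37.0% and 36.4%. The median distance to the start of a protein-coding gene was 27.5 kb at kept and 28.6 kb at lost sites, and 18.4% and 18.6% lay over 100 kb away. Under 1 kb from a start, STAT5 was lost at 31.0% of 452 sites (26.9 to 35.4%), and at 34.6 to 36.9% in the bins farther out. Across chromosomes, loss ranged from 31.4% on chromosome 16 to 40% on chromosome X.

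The STAT motif was more frequent at kept summits. TTCNNNGAA, whose complement is the same motif so that both strands are read at once, lay within 50 bp of 44.1% of kept and 26.5% of lost summits (difference -17.6 points, -19.7 to -15.5). Windows 1 kb to either side of the summits held it in 3.35% and 3.54%, windows every 10 kb along the genome in 3.74%, and RefSeq promoters of 300 bp, which are longer, in 8.30% of 32851. STAT5 was lost at 41.7% of sites without a motif, at 25.1% with 1 and at 18.2% with 2 or more. The median WT fold was 6.87, 9.02 and 11.2 in these sets, so that sites with motifs were also the stronger ones. Within the 4 weaker strength groups the difference ran from -7.47 to -1.48 points, and 2 intervals left out 0.

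The most frequent forms of the motif differed little in loss, while rarer forms varied more, on few sites. TTCCAGGAA was the most frequent form, at 586 WT sites with 21.8% lost, followed by TTCTCAGAA at 540 (21.9%), TTCCCAGAA at 384 (25.8%), TTCCAAGAA at 379 (21.6%), TTCTAAGAA at 348 (22.1%) and TTCCTAGAA at 343 (22.4%), each counted with its complement. A rarer form, TTCAAAGAA, lay at 91 sites of which 42.9% (33.2 to 53.1%) were lost. Other rare forms were TTCAAGGAA, at 59 sites with 39.0% lost, and TTCCGAGAA, at 52 sites with 21.2% lost. Median WT fold was 8.16 for TTCAAAGAA, 8.22 for TTCAAGGAA and 9.88 for TTCCGAGAA, against 9.45 for TTCCAGGAA. Motif copies lay a median of 21 bp from kept and 23 bp from lost summits.

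The arms of the palindrome were most often 3 bases apart among spacers of 0 to 10 bases. With 3 bases between TTC and GAA the share was 44.1% at kept summits, with 4 bases 8.40% against 2.86% of windows along the genome, and with 1 base 3.76% against 3.10%. Lost sites gave 26.5%, 6.56% and 3.92% for the same spacers. Kept summits lay above the genome at every spacer from 0 to 10 bases. With 8, 9 and 10 bases the shares were 7.02% against 3.01%, 5.96% against 3.24% and 7.30% against 3.33%. With 0 bases they were 0.529% against 0.367%. Among motifs of other factors, read on both strands, the AP-1 motif TGANTCA lay at 9.61% of kept and 8.19% of lost summits (2.96% along the genome), the core of PU.1, GAGGAAGT, at 3.93% and 4.34% (0.559%), and the NF-kB core at 3.79% and 2.85% (0.908%). A match of letters is a description and not a measured binding site.

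**Figure D4:**
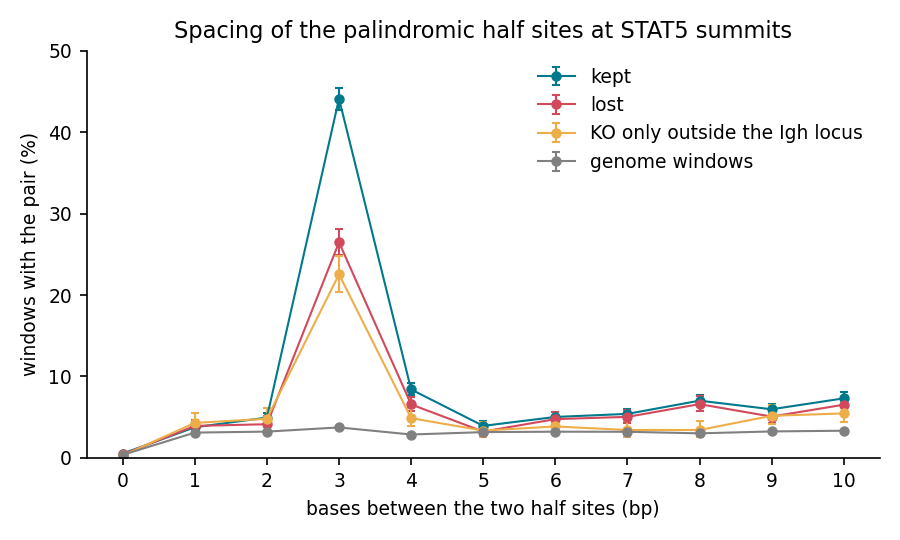
Share of STAT5 summits with TTC and GAA within 50 bp (y axis, percent) by the number of bases between the arms (x axis, 0 to 10), for kept, lost and KO only sites and for windows along the genome. The peak lies at 3 bases, with 44.1% of kept, 26.5% of lost and 3.74% of windows along the genome.

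Genes were assigned by the nearest protein-coding start, so that 3279 of 21911 genes (15.0%) had a kept site, 2179 (9.94%) a lost site, 1142 (5.21%) a lost and no kept site, and 1149 (5.24%) a KO only site. A kept or lost site was nearest to 20.2% of genes. Lost sites gathered at the genes that had kept ones: a lost site was found at 6.13% of genes without a kept site, 23.0% with 1, 43.5% with 2 or 3 and 73.0% with 4 or more. Genes with long empty flanks collect more sites of each class under this assignment. In the 5 gene lists below, 27.4 to 40.3% of WT sites were lost, around the 35.2% of all WT sites. These lists hold only 31 to 95 WT sites each, and neither the lists nor the difference from all sites was tested. Where 1 of several sites of a gene is described, it was picked by its WT level or its place near the start, and other kept sites of the same gene were not always lower in KO.

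The first list held STAT5 targets and feedback inhibitors. Of its 22 genes, 19 had a kept site (15.0% of all genes), 10 a lost site (9.94%), 1 a lost and no kept site (5.21%) and 6 a KO only site (5.24%). Of the 95 WT sites near these genes, 26 (27.4%) were lost, against 35.2% of all WT sites. Ccnd3, a cyclin gene, was the one gene with a lost site only, of 25 fragments, 5.0 kb into the gene. Pim2 and Bcl6 had none assigned to them, and the sites in Bcl6 were nearest to another start.

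Cish, an inhibitor of cytokine receptors and a classical STAT5 target, had 3 kept sites, each among the highest levels measured. The site 222 bp before its start had 159 fragments in WT and 148 in KO (ratio per coverage 0.725), that at 16.1 kb 96 and 72 (0.584), and that at 11.1 kb 103 and 80 (0.605). Its 3 lost sites, at 1.4, 6.4 and 9.5 kb, were weak, with 15, 15 and 19 fragments. Strong sites of Cish were thus present in both genotypes and weak ones between them were called in WT only.

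Socs3, whose product blocks JAK kinases, kept all 6 of its WT sites. The site 86 bp before its start had 96 fragments in WT and 62 in KO (0.503), with CTCF, SMC1 and H3K27ac in both lists, and the site at 22.6 kb had 103 and 115 (0.870). Socs2, another feedback inhibitor, kept 3 sites, of which the one with 2 copies of TTCCAGGAA had 41 fragments in WT and 55 in KO (1.05). Socs1 had 7 kept sites, 3 lost ones of 25, 16 and 10 fragments, and 2 KO only sites. Its strongest, 60.2 kb downstream, had 59 and 51 fragments (0.674) and lay under CTCF and SMC1 peaks in WT that were absent from the KO lists.

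Among survival and growth genes, the kinase gene Pim1 had 4 kept sites with 83, 62, 41 and 28 fragments in WT and 82, 54, 21 and 26 in KO, and 3 lost ones with 15, 12 and 10. The site in the first exon region of Bcl6, a transcriptional repressor gene, had 120 fragments in WT and 143 in KO (0.929). Mcl1, which protects cells from death, had 69 and 70 at 10.4 kb (0.791), and its relative Bcl2l1 24 and 17 at the promoter (0.552). Osm, a cytokine gene that STAT5 induces, had 51 and 35 at 279 bp (0.535). A second Osm site, 542 bp before the start, had 11 in WT and 35 in KO (2.48). The cyclin gene Ccnd2 had 50 and 39 at its strongest site (0.608). Myc kept 7 sites between 167 and 745 kb away, all lower in KO per coverage, and lost 5 of 12 to 24 fragments.

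Of 26 genes of the GM-CSF receptor and its pathway, 12 had a kept site (15.0% of all genes), 11 a lost site (9.94%), 6 a lost and no kept site (5.21%) and 2 a KO only site (5.24%). Of their 45 WT sites 31.1% were lost, against 35.2% of all. Csf2rb, the beta chain of the receptor, had 72 fragments in WT and 60 in KO at 180 bp from its start (0.649) and 46 and 38 at 8.9 kb (0.644). Csf2rb2, its paralogue, had 24 and 27 at 22 bp before the start (0.877) and 27 and 49 at 7.0 kb (1.41). The sequences of these paralogues are close, and how reads that fit both were placed is not given in the sources used here. No site was assigned to Csf2ra.

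Jak2, the kinase of this receptor, had 72 fragments in WT and 61 in KO 23.5 kb before its start (0.660), 54 and 43 at 41.7 kb (0.621), 2 lost sites of 14 and 11 fragments, the latter 1154 bp into the gene, and 2 KO only sites. The phosphatase gene Ptpn1 had 73 and 62 (0.662) at the strongest of 3 kept sites, and Cbl, a ubiquitin ligase that turns receptors over, 43 and 54 at its promoter (0.979). Genes with lost sites only were Jak1, Stat3, Stat5a, Ptpn11, Sh2b3 and Grb2. At the promoters of Stat3, Stat5a and Ptpn11 these had 9, 9 and 11 fragments, near the 8 of the weakest WT call, and at Grb2 in an intron 22. Pik3r1, a regulatory subunit of PI3 kinase, kept 11 sites with 11 to 45 fragments in WT and 10 to 55 in KO, and lost none.

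In the TLR and NF-kB pathway, 12 of 32 genes had a kept site (15.0% of all genes), 11 a lost site (9.94%), 4 a lost and no kept site (5.21%) and 6 a KO only site (5.24%). Of the 47 WT sites 31.9% were lost, against 35.2% of all. Tlr4, the LPS receptor, had 113 fragments in WT and 94 in KO 5.6 kb before its start (0.648), 4 other kept sites with ratios of 0.487 to 0.837, a lost one of 9 fragments and a KO only site of 15 fragments at 299 bp. Nfkb1, an NF-kB subunit gene, had 144 and 96 fragments 99 kb before its start (0.520), its 3 other kept sites had ratios of 0.489 to 0.597, and 3 sites of 12 or 13 fragments were lost. Myd88, the adaptor of TLRs, had a single site, lost, of 10 fragments at 72 bp before the start. Rel, an NF-kB subunit gene, had stronger loss, with a lost site of 29 fragments 32.6 kb before its start and another of 12. Its kept sites had 46 and 13 fragments in WT and 43 and 18 in KO. The inhibitor gene Tnfaip3 had 9 kept sites, a lost one of 12 fragments at its promoter and 4 KO only ones.

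Trim25 and Irak2 were picked by the study itself on these samples, so they are no independent examples. The study describes STAT5 at the Trim25 promoter in WT and its loss in KO, shown as signal tracks. In contrast, no called STAT5 peak of either list used here lay at the Trim25 promoter. The site 25 kb downstream had 29 fragments in WT and 25 in KO (0.672), and the study calls STAT5 comparable at a downstream enhancer. Irak2 had a lost site of 14 fragments 6.5 kb into the gene, and 3 kept sites inside it, nearest to the start of Tatdn2, with 64, 29 and 15 fragments in WT and 41, 35 and 20 in KO. SMC1, H3K27ac and H3K4me1 lay at the lost Irak2 site in both genotypes, and CTCF in neither.

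Of the 31 genes of dendritic cell identity that are annotated as protein-coding, 21 had a kept site (15.0% of all genes), 13 a lost site (9.94%), 2 a lost and no kept site (5.21%) and 3 a KO only site (5.24%). Those with a lost site only were Spi1 and Irf4, transcription factors of the lineage. Of 72 WT sites 40.3% were lost, against 35.2% of all. Cd74, the invariant chain of MHC class II, had 81 fragments in WT and 58 in KO (0.558) and 54 and 52 (0.750). Ciita, the master regulator of MHC class II, had 71 and 39 (0.428) and 19 and 20 (0.820), and Cd40, a costimulatory receptor, 26 and 17 (0.510). Itgax, which encodes CD11c, had 46 and 36 (0.610), 23 and 26 (0.881) and 16 and 20 (0.974). Batf3, a factor of the lineage of cross-presenting cells, had 96 and 81 at 26.3 kb (0.658), with 3 weaker kept sites at ratios of 0.909 to 1.20 and 3 lost ones. Kit, a growth factor receptor gene, had 92 and 85 (0.720) and 16 and 32 (1.56), and 3 lost sites.

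The strongest lost sites in this list had 23 fragments, at Id2, and 21, at Klf4, near the median of 23 at kept summits in WT. Irf8 had 13 fragments at a lost site 286 bp before its start and 18 at another, while its 2 kept sites had 24 and 18 in WT against 14 and 16 in KO. Spi1, which encodes PU.1, had a lost site of 17 fragments 8.1 kb into the gene and a kept one of 43 and 40 that was nearest to Mybpc3. Irf4 had a lost site of 16 in an intron, with SMC1 and H3K27ac in WT and not in KO. Id2, an inhibitor of E proteins, had 5 kept and 6 lost sites, the lost ones with 10 to 23 fragments.

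Of 20 cytokine and chemokine genes, 12 had a kept site (15.0% of all genes), 7 a lost site (9.94%), 1 a lost and no kept site (5.21%) and 6 a KO only site (5.24%). Of 31 WT sites 32.3% were lost, against 35.2% of all, and the gene with lost sites only was Il12a, with 13 and 14 fragments. Ccl17, a chemokine gene that GM-CSF induces, had 80 fragments in WT and 60 in KO at 140 bp (0.584), and Ccl6 89 and 97 at 514 bp (0.849), the strongest of 4 kept sites. Il1b had 31 and 35 at its promoter (0.880) and a lost site of 15 fragments. Il1a had 40 and 46 at 10.5 kb (0.896) and 22 and 34 at its promoter (1.20). Il12b had 51 and 45 at 27 kb (0.688), with 2 weak KO only sites closer to its start. Il6 had 71 and 54 at 64.8 kb (0.593) and 3 lost sites of 20, 16 and 9 fragments, and Tnf had a KO only site of 14 fragments 228 bp before its start. Over the 5 lists, KO only sites lay at the promoters of Il6, Nfkb1, Tlr4 and Tnf, with 9 to 15 fragments, in the range of the weaker calls.

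Genes with the most sites were few and their sites lay over wide regions. Klf6, a zinc finger factor gene, had 23 kept, 10 lost and 5 KO only sites from 3.0 to 550 kb away. Its kept sites had 13 to 100 fragments in WT and 13 to 99 in KO, 20 of 23 lower in KO per coverage, and its lost sites 9 to 25. Bhlhe40, a transcriptional repressor gene, had 12 kept and 6 lost sites, all 12 lower in KO per coverage. Trib1, a pseudokinase gene, kept 11 and lost none, with 12 to 53 fragments in WT and 11 to 43 in KO, and all 11 were lower. Inhba, a subunit gene of activin, kept 12 and lost 1. In contrast, 8 sites nearest to Adgrl2 were lost and none kept, all between 375 and 910 kb from its start with 8 to 19 fragments, and Asap1 had 4 kept and 8 lost sites, the lost ones with 8 to 20.

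KO only sites had other features than kept ones. The motif lay at 20.4% of KO only summits and at 22.5% of those outside the Igh locus, against 43.0% of kept KO peaks (difference outside the locus -20.5 points, -23.0 to -17.9). Within the 4 weaker of 5 strength groups of KO peaks that difference ran from -6.19 to 3.04 points, and 1 interval left out 0. Outside the locus 32.7% had SMC1, 27.3% H3K27ac and 60.2% H3K4me1 in WT, against 59.95%, 60.2% and 93.1% of kept KO peaks. In the same 4 groups these differences ran from -37.9 to -20.1 points for SMC1, from -39.9 to -23.5 for H3K27ac and from -38.2 to -15.6 for H3K4me1, with every interval below 0. With the locus included the SMC1 share was 29.7%. A KO CTCF peak lay at 5.24% of KO only sites outside the locus, at 14.2% with the locus, and at 3.20% of kept KO peaks. The p65 list of LPS-treated WT cells overlapped 8.36% of them, against 19.99% of kept and 14.5% of lost WT sites.

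Place differed as well. Over 100 kb from a start lay 33.5% of KO only sites outside the locus and 18.4% of kept KO peaks (difference 15.0 points, 12.4 to 17.8), and the median distance was 44.1 kb. Of the KO peaks on chromosome X, 42.3% were KO only, against 14.5% on chromosome 2, the lowest. Outside chromosome 12, a stretch of 1 Mb on chromosome 4 starting at 147000001 held 22 KO only sites and one on chromosome 16 starting at 3000001 held 10. The strongest KO only sites outside the locus had 56 fragments (1810013L24Rik), 48 (Mmp2), 46 (Smim4), 34 (Zfp874b) and 33 (Gnai1), and 8 of the top 10 held a motif. None of these 10 had SMC1 or CTCF in either genotype, and H3K4me1 lay at 2 in WT and 7 in KO.

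Within the Igh locus, chr12:113254830-116010093, lay 184 of 1559 KO only sites (11.8%), in 0.101% of the genome. It comprises 217 annotated heavy chain gene segments and pseudogenes, 185 of them variable segments, which B cell precursors recombine. Nearest protein-coding starts gave most of these sites to Zfp386, with 155 KO only sites, and Adam6a, with 29 in all. They had 9 to 81 fragments with a median of 16, 8 of them (4.35%) held the motif, and the median GC content was 33.7%. Only 4 WT peaks there were kept and 1 was lost.

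Other KO lists were dense in the same locus. CTCF peaks there numbered 162 in WT and 250 in KO, SMC1 89 and 283, p65 0 and 53, H3K27ac 11 and 99, H3K4me3 3 and 24, H3K4me1 122 and 164, and H3K27me3 65 and 181. With LPS the counts were 141 and 254 for CTCF and 80 and 276 for SMC1. A KO CTCF peak lay at 81.5% of the KO only STAT5 sites of the locus and a WT one at 15.8%, and KO SMC1 at 89.7% against WT SMC1 at 7.61%. The locus was recognised after the peaks were seen. What gave KO libraries more peaks there was not tested. Without the locus the KO only share was 20.7% (19.7 to 21.6%).

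**Figure D5:**
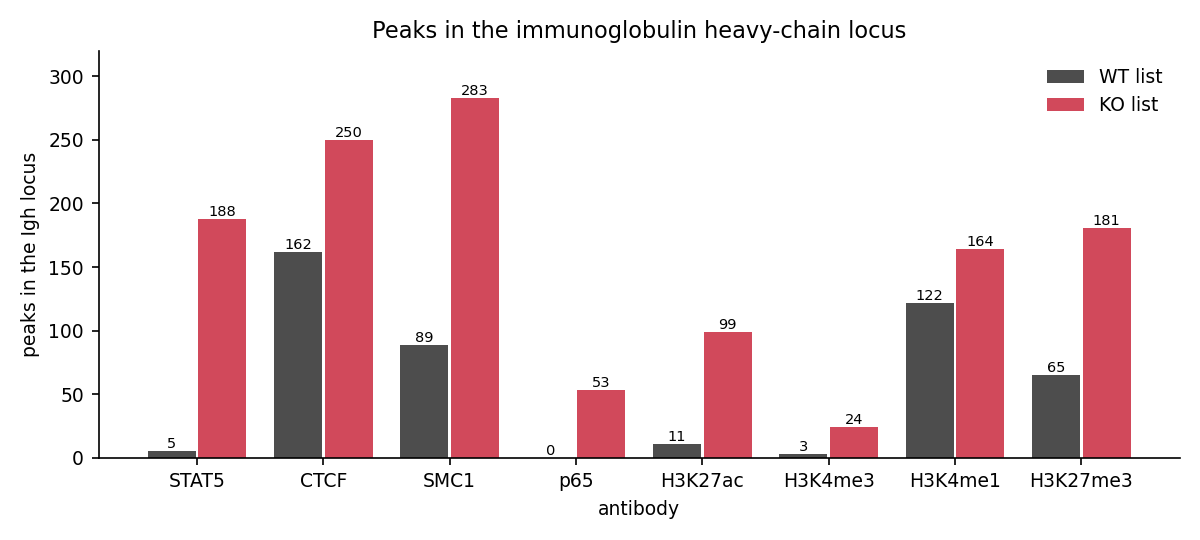
Number of peaks in the Igh locus (y axis) for each antibody (x axis) in the WT and KO lists of unstimulated cells, or of GM-CSF-restimulated cells for STAT5. KO has more peaks than WT for all 8 antibodies, with 188 against 5 for STAT5.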

How the data were processed

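ChIP-seq libraries were made by tagmentation and sequenced in pairs. The authors aligned reads to mm10, took out duplicates and called peaks with input as control. The submitters' processing notes name BWA 0.7.12, Picard 1.77 and MACS2 2.1.2, and the study's methods name later versions of all 3. The study made 2 biological replicates per condition, states calling per replicate in its methods and merging of replicates in a general statement, and neither the labels nor the files say which applies to these lists. Deposited for each peak were its fold (a ratio of pileup over background) and its p-value and q-value as −log10. Peak names in the H3K4me1 lists carry another antibody supplier than the labels.

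All 34 samples were grouped by title. 4 inputs have no list and were not analysed here. Classes, overlaps (at least 1 bp) and distances were computed in Python 3.11.15 (numpy 2.4.6, pandas 2.3.3, scipy 1.17.1), with GENCODE vM21 genes (55413, of which 21938 protein-coding) and the start of the longest transcript. Fragments at a summit were the whole number that, with 1 added as MACS2 does, gave back both fold and p within 0.002, found for 99.99% of peaks of each list, and coverage was the most frequent background. The lowest −log10 p was 4.22 in both lists. Scripts were tested on simulated data. A further marker list is not reported here. Members and gene lists were chosen with earlier results of these data known. Named were the 5 gene lists, the 10 sites of highest fold per class and the genes with the most sites. Promoter width, motif, window, overlap, threshold and scaling were varied, while the 5 fold groups were not. Leaving out the Igh locus was added after the data were seen.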

Additional observations from a re-analysis of the deposited data

How the results depend on the processing

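No paired analysis was possible because each antibody and condition has a single list. Of 52 alternatives to 9 results, 36 stayed within the 95% interval of the value reported, 16 moved outside it, and none of those whose interval left out 0 changed sign. The difference for WT CTCF, whose interval contained 0, turned positive with summits within 100 bp (0.0377 points), with places in at least 20 lists left out (0.604) and with the mark covering the summit. Requiring summits within 100 bp gave 46.7% lost and 36.4% KO only, and lost minus kept differences of -2.69 points for WT SMC1, -6.80 for WT H3K27ac, -5.62 for WT H3K4me1 and -22.1 for the motif. A −log10 q of at least 5 gave 32.4% lost, 17.4% KO only, -4.15 for WT H3K4me1 and -15.5 for the motif. With KO peaks scaled to WT coverage, 19.8% were KO only. With the mark required to cover the summit, the difference was 1.40 points for WT CTCF and -3.16 for WT H3K27ac. The motif difference was -20.5 within 100 bp and -12.1 for TTCCNNGAA. Without the Igh locus 20.7% were KO only. The median kept ratio, 0.747, was 0.958 without scaling and 0.825 for folds. Leaving out a replicate was not possible. Beyond what each alternative changes by construction, the cause was not tested. Shares of lost sites rest mostly on the weakest calls, where 8 or 9 fragments at a summit set the limit of detection.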

Other observations

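Some KO only summits of high fold shared stretches of sequence. The sites near 1810013L24Rik and Smim4 both held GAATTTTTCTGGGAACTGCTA, a run of 21 bases that includes a STAT motif and has 27 copies in the genome. It lay within 50 bp of 8 KO only, 3 kept and 0 lost summits. The run CAGAATTCAGTGTGGGGC, shared by the sites near 1810013L24Rik and Zfp874b, has 102 copies and lay at 5 KO only, 10 kept and 0 lost summits. Both runs were picked after the sequences were seen. Soft-masked (repeat) letters made up a median of 19.8% of the summit window at KO only sites and 0% at kept and lost sites.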
